A study of Zea mays with 12 samples.

Results

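The genes described here are *mn1* (Zm00001d003776), *sweet4c* (Zm00001d015912) and *sut1* (Zm00001d027854), 3 maize genes of sugar import into the seed, out of 46430 identifiers in the deposited count tables. They were chosen by identifier for their role in sugar import, with earlier results of these data known, and all 3 were present in both tables. The pairing of name and identifier comes with that choice, since the tables list identifiers only.

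RNA-seq libraries were made from developing seeds of maize taken 7 or 14 days after pollination (DAP). Wild-type plants were compared with plants of *zmmsh7-2*, labelled as an MSH7 knockout and marked as made by CRISPR. The labels code wild type as AA and the knockout as aa. Each of the 4 groups, wild type 7 DAP, msh7 knockout 7 DAP, wild type 14 DAP and msh7 knockout 14 DAP, had 3 libraries of total RNA. MSH7 is a plant homologue of the MutS proteins, which recognise mismatched DNA. The knockout is represented by this 1 allele, and the inbred background, the pollen parent and any pooling of seeds or ears are not stated in the labels. MSH7 transcripts were not analysed here, so the genotype labels were not checked against the targeted gene.

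Sucrose arrives at the base of the maize kernel through the maternal phloem and must cross from maternal tissue into the endosperm, which has no symplastic connection to it. At this border lies the basal endosperm transfer layer, whose cells have ingrown walls and carry the import machinery. *mn1* (Miniature1, also Incw2) encodes the cell wall invertase of this layer, which splits sucrose into glucose and fructose outside the cells, and kernels that lack it stay small. *sweet4c* encodes a hexose transporter of the SWEET family, which moves the released hexoses across the membrane of the transfer cells and is needed for seed filling. *sut1* encodes a sucrose-proton symporter, which carries uncleaved sucrose and is best known for loading sucrose into the phloem of leaves. The RNA came from seeds and not from cells of a single type, so that fewer cells of a type and less RNA per cell cannot be told apart.

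Total counts per library ranged from 16854595 to 21932590. The lowest count of any of these genes in a library was 429, for *sut1* in wild type 7 DAP replicate 1, so all 3 passed the filter on low counts in every group. Levels are given as CPM, the counts of a gene scaled to a fixed library total, after TMM scaling over all 12 libraries. TMM scaling adjusts for library size and composition but not for transcript length, so levels are compared between groups for each gene and not between genes. Nothing in the labels ties the replicates to separate plants or ears. The p-values therefore describe the spread among these libraries alone, part or all of which can be technical.

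*mn1*, the invertase gene, had a higher level in the knockout than in wild type at both stages, and it rose from 7 to 14 DAP in both genotypes. In wild type at 7 DAP the 3 libraries had 4497, 4675 and 4256 counts, or levels of 211, 205 and 190 CPM. In the knockout at 7 DAP they had 8994, 7604 and 8785 counts, or levels of 389, 382 and 389 CPM. At 7 DAP the lowest knockout library was thus well above the highest wild-type library. At 14 DAP the wild-type libraries had 19117, 17521 and 16535 counts, or levels of 999, 1003 and 931 CPM. The knockout libraries at 14 DAP had 23878, 29022 and 27000 counts, or levels of 1528, 1519 and 1473 CPM. The groups were ordered wild type 7 DAP, knockout 7 DAP, wild type 14 DAP and knockout 14 DAP, and no pair of them overlapped. Separate groups were common among the 25344 genes tested in all 12 libraries. The groups did not overlap for 70.1% of these genes between genotypes at 7 DAP, 64.1% between genotypes at 14 DAP, 80.9% between stages in wild type and 79.6% between stages in the knockout. For wild type 7 DAP against knockout 14 DAP the share was 83.3%, and for knockout 7 DAP against wild type 14 DAP it was 81.7%. The *mn1* group means were 202 ± 10.9, 387 ± 3.80, 978 ± 40.7 and 1507 ± 29.7 CPM in this order (SD, n = 3 each). Of all counts in a library, *mn1* took 0.0219% ± 0.00115 in wild type and 0.0438% ± 0.000320 in the knockout at 7 DAP, and 0.0853% ± 0.00337 and 0.140% ± 0.00268 at 14 DAP (SD, n = 3 each).

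*sweet4c*, the hexose transporter gene, changed its order between the genotypes with stage. In wild type at 7 DAP it had 1041, 1075 and 1071 counts, or levels of 48.7, 47.2 and 47.7 CPM. In the knockout at 7 DAP it had 932, 756 and 816 counts, or levels of 40.3, 38.0 and 36.1 CPM. All 3 knockout libraries were below all 3 wild-type libraries at this stage. At 14 DAP the wild-type libraries had 2208, 2046 and 1934 counts, or levels of 115, 117 and 109 CPM. The knockout libraries at 14 DAP had 2661, 3354 and 2841 counts, or levels of 170, 176 and 155 CPM, all above wild type. From lowest to highest the order was knockout 7 DAP at 38.1 ± 2.07 CPM, wild type 7 DAP at 47.9 ± 0.763 CPM, wild type 14 DAP at 114 ± 4.36 CPM and knockout 14 DAP at 167 ± 10.7 CPM (SD, n = 3 each). No pair of groups overlapped, so that the knockout held both the lowest and the highest levels.

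*sut1*, the sucrose symporter gene, followed stage much more than genotype. At 7 DAP it had 429, 504 and 455 counts in wild type, or levels of 20.1, 22.2 and 20.3 CPM. In the knockout at 7 DAP it had 470, 446 and 464 counts, or levels of 20.3, 22.4 and 20.6 CPM. These groups, with means of 20.8 ± 1.14 and 21.1 ± 1.16 CPM, overlapped. At 14 DAP the wild-type libraries had 1070, 953 and 951 counts, or levels of 55.9, 54.6 and 53.5 CPM. The knockout libraries at 14 DAP had 960, 1110 and 1054 counts, or levels of 61.4, 58.1 and 57.5 CPM. The 14 DAP groups, with means of 54.7 ± 1.20 and 59.0 ± 2.12 CPM (SD, n = 3 each), did not overlap but lay close together.

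**Figure D1:**
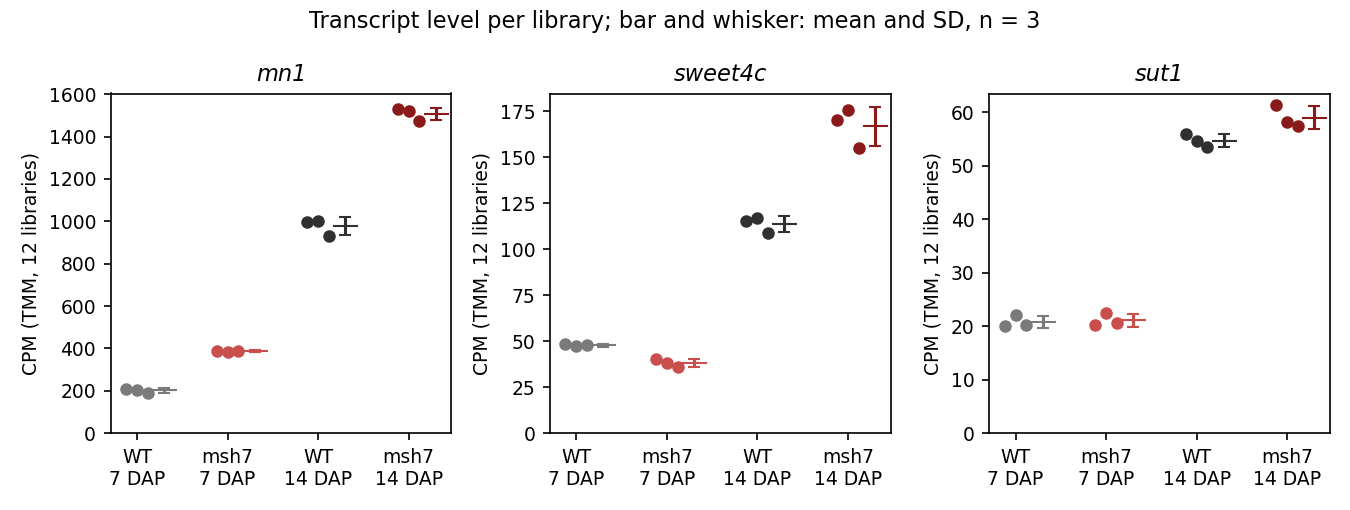
Level of *mn1*, *sweet4c* and *sut1* in each library, in CPM after TMM scaling over 12 libraries, with points for single libraries and a bar with whiskers for the group mean and SD (n = 3). The *mn1* groups climb from 202 to 1507 CPM without overlap, the *sweet4c* knockout group is lowest at 7 DAP and highest at 14 DAP, and the *sut1* groups overlap at 7 DAP.

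The spread between replicates was set against what counting alone gives. For *sut1* the coefficient of variation within a group was between 2.19% and 5.49%, where the counts themselves allow for 3.10% to 4.66%. For *sweet4c* the spread was below counting error in wild type at 7 DAP, at 1.59% against 3.07%, and above it in the other groups, the most in the knockout at 14 DAP, at 6.41% against 1.84%. For *mn1* it was 0.984% against 1.09% in the knockout at 7 DAP and above counting error in the other groups, up to 5.42% against 1.50% in wild type at 7 DAP.

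The first comparison asked how the knockout differed from wild type at 7 DAP. *mn1* was higher in the knockout, by 1.92-fold (95% interval 1.85 to 1.99), and *sweet4c* was lower, by 1.25-fold. The log2 fold change was 0.94 (SE 0.03, edgeR adjusted p = 4.47e-57) for *mn1* and −0.33 (SE 0.05, edgeR adjusted p = 4.22e-09) for *sweet4c*. For *sut1* it was 0.02 (SE 0.07, edgeR adjusted p = 0.834), with a 95% interval of 0.920 to 1.11 for the ratio of knockout to wild type. Of the 3 genes, 1 was thus higher, 1 lower and 1 not called, at a stage where 71.1% of the 24096 genes tested were called, 35.5% as higher and 35.6% as lower. A call on its own therefore did not set these genes apart. In size, regardless of direction, the change of *mn1* was larger than that of 83.5% of the genes tested, that of *sweet4c* larger than 43.7% and that of *sut1* larger than 2.33%. With the sign kept, the log2 fold change of *mn1* was above those of 93.0% of the genes tested, while 28.7% of genes had a lower value than *sweet4c* and 50.6% a lower value than *sut1*.

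At 14 DAP both genes of the invertase and hexose route were higher in the knockout. *mn1* was higher by 1.54-fold and *sweet4c* by 1.47-fold. The log2 fold changes were 0.63 (SE 0.02, 95% interval 0.58 to 0.67, edgeR adjusted p = 4.42e-41) and 0.55 (SE 0.04, 95% interval 0.48 to 0.63, edgeR adjusted p = 2.66e-23). *sut1* was higher by 1.08-fold, with a log2 fold change of 0.11 (SE 0.05, edgeR adjusted p = 0.0428), just past the threshold of 0.05. All 3 genes were called as higher, where 63.8% of the 23811 genes tested were called, 31.7% as higher and 32.1% as lower. Without a composition factor, that is with library totals alone, the split over all genes moved from 7557 higher and 7642 lower to 9532 higher and 6389 lower. That scaling also moved the median log2 fold change of all genes to 0.10, from 0.01 with TMM. The log2 fold changes of *mn1* and *sweet4c* were above those of 90.1% and 88.1% of the genes tested, and that of *sut1* above those of 59.4%. Regardless of direction, the changes of *mn1*, *sweet4c* and *sut1* were larger than those of 74.1%, 70.1% and 19.4% of genes.

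The call of *sut1* at 14 DAP depended on how the counts were treated. It held with library totals alone (log2 fold change 0.20, edgeR adjusted p = 0.000259) and with a replicate block (edgeR adjusted p = 0.0307). It was lost in the 5 other settings tried, where the adjusted p was 0.0512 with RLE factors, 0.0561 with no filter, 0.0524 with a stricter filter, 0.0555 in a fit of all 12 libraries and 0.148 with DESeq2. It was also lost without wild type 14 DAP replicate 2 (edgeR adjusted p = 0.0873) or replicate 3 (0.121) and without msh7 knockout 14 DAP replicate 1 (0.181) or replicate 2 (0.0528), and held without wild type 14 DAP replicate 1 (0.0453) or msh7 knockout 14 DAP replicate 3 (0.0352).

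**Figure D2:**
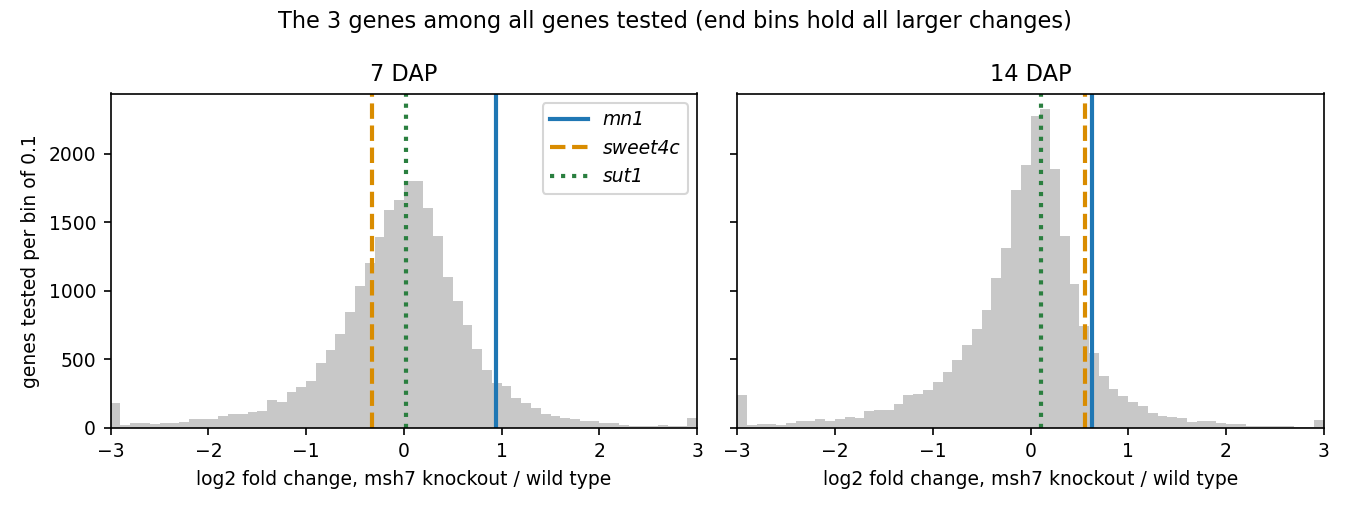
Number of genes tested in each bin of 0.1 of the log2 fold change of knockout over wild type, at 7 DAP and at 14 DAP, with lines at the values of *mn1*, *sweet4c* and *sut1*. *mn1* lies in the upper part of the distribution at both stages, at 0.94 and 0.63, while *sweet4c* moves from −0.33 to 0.55 and *sut1* stays near the centre.

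Whether the effect of the knockout differed between the stages was tested directly, as the difference of the log2 fold changes at 14 and 7 DAP. For *sweet4c* the effect turned from lower to higher, with effects that differ by a log2 value of 0.88 (SE 0.06, edgeR adjusted p = 6.89e-25). This difference was above those of 92.1% of the 25344 genes tested. For *mn1* the effect kept its direction but was smaller at 14 DAP, a difference of −0.31 (SE 0.04, 95% interval −0.39 to −0.24, edgeR adjusted p = 1.47e-09). For *sut1* the difference was 0.09 (SE 0.08, 95% interval −0.07 to 0.26, edgeR adjusted p = 0.361), so that an effect of up to 1.19-fold in favour of 14 DAP lies within the interval. With 1 gene called as higher and 1 as lower among the 3, the background of all genes was 46.8% called, 22.8% as higher and 24% as lower.

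From 7 to 14 DAP all 3 genes rose in both genotypes. In wild type *mn1* rose by 4.85-fold, a log2 fold change of 2.28 ± 0.03 (SE; edgeR adjusted p = 2.50e-51). The transporter genes rose less, *sut1* by 2.62-fold (1.39 ± 0.06 on the log2 scale; edgeR adjusted p = 2.10e-45) and *sweet4c* by 2.38-fold (1.25 ± 0.04; edgeR adjusted p = 2.10e-51). In the knockout *sweet4c* rose by 4.38-fold (2.13 ± 0.04; edgeR adjusted p = 1.98e-73). There *mn1* rose by 3.90-fold (1.96 ± 0.03; edgeR adjusted p = 3.50e-49) and *sut1* by 2.80-fold (1.49 ± 0.06; edgeR adjusted p = 3.48e-48). In wild type *mn1* thus had the largest of the 3 rises, with *sut1* and *sweet4c* not apart beyond their spread, while in the knockout the order was *sweet4c*, *mn1* and *sut1*. The stage effects share their libraries with the genotype effects, and the test of whether a rise differed between genotypes is the same as the test of the difference given above.

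Over all 25344 genes, 80.5% were called between the stages in wild type, 40.8% as higher at 14 DAP and 39.8% as lower. In the knockout 78.8% were called, 39.3% as higher and 39.6% as lower. With library totals only, 7480 genes were higher and 13242 lower in wild type, against 10332 and 10077 with TMM, and 7202 were higher and 13182 lower in the knockout, against 9948 and 10025. The median of all genes moved to −0.30 in both genotypes with that scaling. The 3 genes kept their rise with it, at log2 fold changes of 1.96, 0.93 and 1.07 for *mn1*, *sweet4c* and *sut1* in wild type and of 1.67, 1.84 and 1.20 in the knockout. The 2 stages were deposited in separate tables, so a batch between the tables and the stage cannot be told apart.

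**Figure D3:**
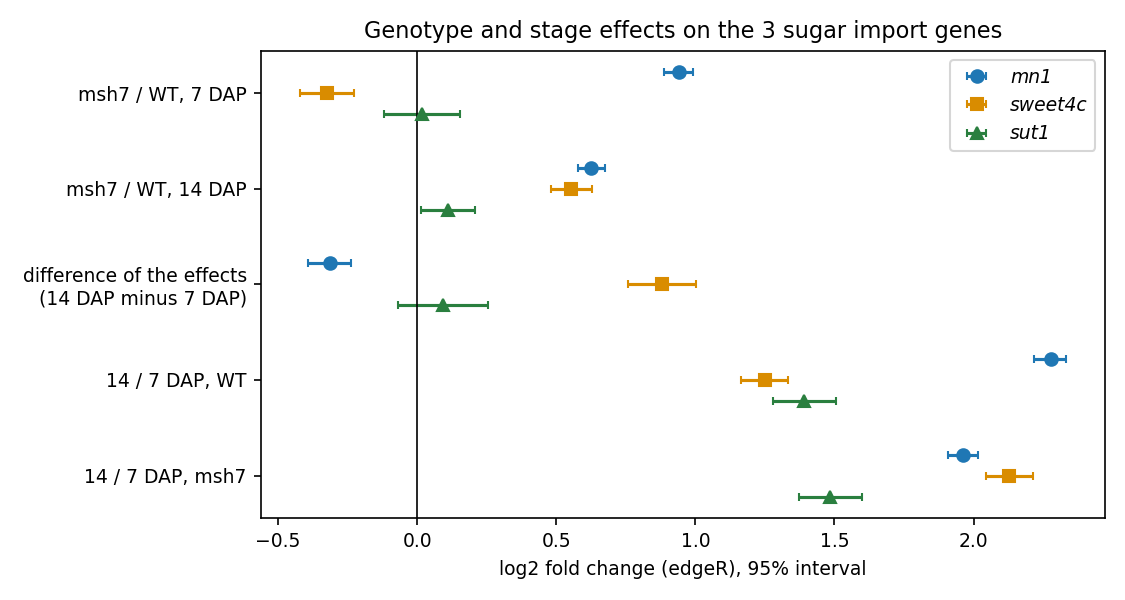
Log2 fold changes of *mn1*, *sweet4c* and *sut1* with 95% intervals from edgeR, for knockout over wild type at each stage, the difference of these effects, and 14 over 7 DAP in each genotype. The *sweet4c* effect of genotype lies at −0.33 at 7 DAP and at 0.55 at 14 DAP, the *mn1* effects at 0.94 and 0.63, and all 6 changes with stage are above 1.

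The ratio of the counts of a pair of genes within a library does not depend on how libraries are scaled. Transcript length adds a constant factor to such a ratio, so it is compared between groups only. At 7 DAP the ratio of *mn1* to *sweet4c* was 4.32, 4.35 and 3.97 in the wild-type libraries and 9.65, 10.1 and 10.8 in the knockout libraries. The invertase transcript was thus 2.41-fold more abundant relative to the hexose transporter transcript in the knockout, without overlap (exact permutation test, two-sided, p = 0.1). At 14 DAP the ratio was 8.66, 8.56 and 8.55 in wild type and 8.97, 8.65 and 9.50 in the knockout, and the groups overlapped (1.05-fold, two-sided exact permutation test p = 0.2). In wild type the mean ratio rose between the stages from 4.21 ± 0.209 to 8.59 ± 0.0590, while in the knockout it went from 10.2 ± 0.565 to 9.04 ± 0.430 (SD, n = 3 each). The exact permutation test, two-sided, gave p = 0.1 for both.

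Relative to *sut1*, *mn1* was higher in the knockout at both stages. The ratio was 9.70 ± 0.675 in wild type and 18.4 ± 1.15 in the knockout at 7 DAP, and 17.9 ± 0.499 and 25.6 ± 0.640 at 14 DAP (SD, n = 3 each). The ratio of *sweet4c* to *sut1* was 2.30 ± 0.153 in wild type and 1.81 ± 0.151 in the knockout at 7 DAP, and 2.08 ± 0.0587 and 2.83 ± 0.171 at 14 DAP (SD, n = 3 each). Neither of these pairs overlapped between genotypes at either stage, with p = 0.1 in each of these exact permutation tests. For single genes, the groups did not overlap between genotypes for 70.1% of genes at 7 DAP and 64.1% at 14 DAP. That share was not computed for ratios of other gene pairs. Separate groups in any ratio given here are therefore a description only. Across stages, *mn1* to *sut1* rose by 1.85-fold in wild type and 1.39-fold in the knockout, and *sweet4c* to *sut1* rose by 1.56-fold in the knockout (two-sided exact permutation test p = 0.1 for each). In wild type the values of *sweet4c* to *sut1* overlapped between the stages (two-sided exact permutation test p = 0.2). A p of 0.1 is the smallest that 3 against 3 libraries allow. Over the 12 ratio comparisons the Benjamini-Hochberg adjusted p of the exact test was 0.12 for 10 comparisons at p = 0.1 and 0.2 for the others. With 3 against 3 libraries none could have passed 0.05, whatever the values.

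**Figure D4:**
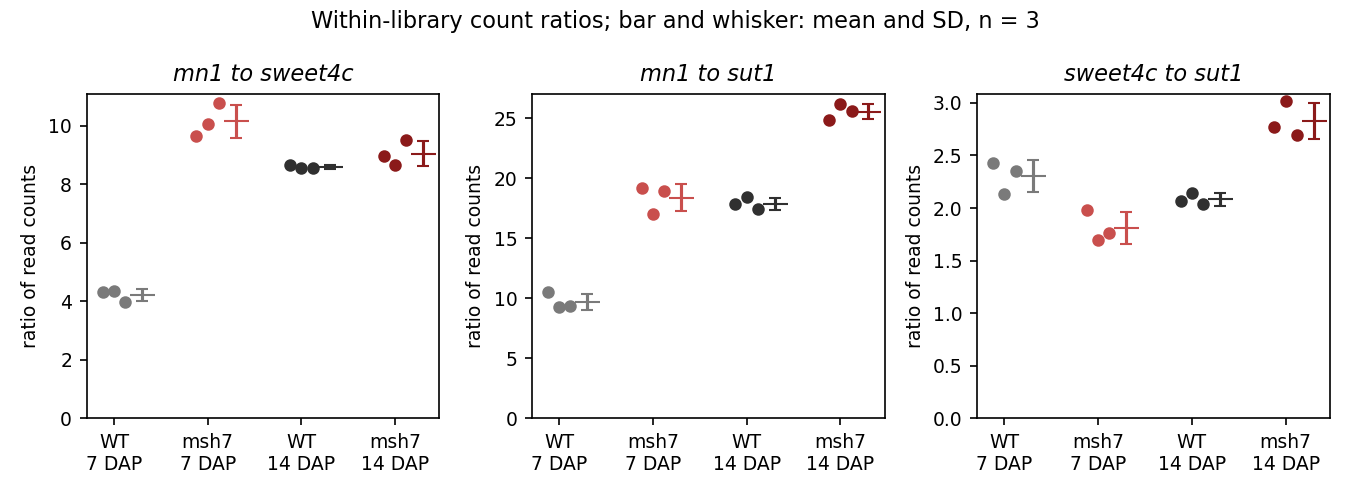
Ratio of read counts of each pair of the 3 genes within each library, with points for single libraries and a bar with whiskers for the group mean and SD (n = 3). The *mn1* to *sweet4c* ratio is near 4.21 only in wild type at 7 DAP and lies between 8.55 and 10.8 in the other libraries.

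The patterns over the 12 libraries were also set against those of 25157 other nuclear gene models, by the Euclidean distance between log2 CPM values centred on each gene's mean. The gene model nearest to *mn1* was Zm00001d051662, at a distance of 0.353. Its mean levels were 17.4 CPM in wild type and 31.3 CPM in the knockout at 7 DAP, and 82.4 and 113 CPM at 14 DAP. The nearest to *sweet4c* was Zm00001d048319, at a distance of 0.323, with 5.98 and 4.71 CPM at 7 DAP and 14.9 and 19.2 CPM at 14 DAP in the same order. The nearest to *sut1* was Zm00001d009837, at a distance of 0.194, with 29.2 and 29.3 CPM at 7 DAP and 74.7 and 84.7 CPM at 14 DAP. These gene models were picked for their likeness, no name for them is at hand, and no test is given for them. The 3 sugar import genes were not each other's nearest patterns, though all 3 rose with stage and their patterns correlated. The Pearson correlation over the 12 libraries was 0.907 for *mn1* and *sweet4c*, 0.945 for *mn1* and *sut1* and 0.971 for *sweet4c* and *sut1*. These values include the rise with stage, and 40.8% of all genes tested were called as higher at 14 DAP in wild type. Correlations between all other genes were not computed, so these values are a description only. Of the 25157 gene models, *sweet4c* ranked 877th and *sut1* 916th by distance from *mn1*. From *sweet4c*, *sut1* ranked 148th and *mn1* 2338th. From *sut1*, *sweet4c* ranked 953rd and *mn1* 4669th.

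SWEET and invertase genes belong to families with similar copies, and the treatment of multiply aligned reads in the counting is not stated in the labels, so reads shared with such copies are an uncertainty of all these values. Whether markers of the transfer layer, the remaining endosperm or the embryo moved with these genes was not tested, since no source used here pairs their names with the identifiers.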

How the data were processed

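The authors deposited 1 table of raw read counts per stage, with whole numbers and no scaling. Per the submitters' processing notes, the build was B73 RefGen_v4 and the tools included HISAT2 2.2.1 and featureCounts 1.6.4, beside StringTie 1.3.6, Trimmomatic 0.39 and DESeq2. The annotation release, strand setting and treatment of multiply aligned reads are not stated there. Columns were matched to samples by their description, with upper and lower case kept.

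Counts were tested in R 4.3.3 with edgeR 4.0.16 (quasi-likelihood test, TMM factors, robust dispersions, a filter with a minimum count of 10 by group), over all genes, with Benjamini-Hochberg adjustment and a threshold of 0.05. Genotypes were compared within a stage in fits of 6 libraries. Stage effects and the difference between genotype effects came from a fit of 12. The SE is the size of a log2 fold change over the square root of its F statistic, and 95% intervals use the t distribution with the degrees of freedom of the test. Permutation tests used scipy 1.17.1. Within each group no library was a copy of another, since replicates differed beyond sampling noise, at 1.66 to 2.38 in chi-square over its degrees of freedom. Libraries of different groups were not compared in this way. The fits were tested on simulated data. Alternatives were RLE factors, library totals, no filter, a minimum count of 50, DESeq2 1.42.0, a replicate block, 1 fit of all libraries and leaving out each library.

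The 3 genes and all lists were chosen with earlier results of these data known. The genes planned to be named were these 3, the nearest gene model to each, and any matched members of gene lists. The lists were of other invertases, SWEET and sucrose transporters, sucrose synthases and seed cell types. The reference table of RefSeq genes (Zm-B73-REFERENCE-NAM-5.0) lists 2 of the 3 names, *mn1* and *sut1*, but holds 0 identifiers of the kind in the count tables. The lists were therefore not used here, and neither were coordinates, promoters or protein sequences.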

Additional observations from a re-analysis of the deposited data

Results flagged for a closer look

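The effect of the knockout on *sweet4c* differed between the stages, by 0.88 on the log2 scale in the direct test, and the direction itself turned. The effect on *mn1* also differed, by −0.31 on the log2 scale, with the same direction at both stages. In that test 46.8% of all genes were called, so a difference between stages was common. Both values kept their sign and their call in all alternatives and without each library in turn, within 0.84 to 0.94 for *sweet4c* and −0.34 to −0.27 for *mn1*.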

How the results depend on the processing

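Of 240 recomputed values of the 3 genes over the 5 comparisons, 228 kept their direction and their side of the threshold. These include stage effects within a genotype refitted without a library of the other genotype. Such stage effects could hardly move, so they are weak checks. All 12 exceptions concern the genotype effect on *sut1*. At 14 DAP its log2 fold change of 0.11 lost its call with RLE factors (0.11), no filter (0.11), the stricter filter (0.10), DESeq2 (0.11) and 1 fit of all libraries (0.11). It kept its call with the replicate block (0.11) and with library totals, where it was larger, at 0.20, and it was 0.084 to 0.132 without single libraries. At 7 DAP it was −0.026 to 0.063 without single libraries and changed sign in 3 cases, −0.01 without wild-type replicate 1, −0.004 without wild-type replicate 3 and −0.026 without knockout replicate 2. The cause was not tested. Counts of genes called over all genes stayed within 1.5 times in every alternative. Replicate numbers paired the samples weakly if at all, since deviations of same-numbered libraries of a stage correlated at −0.0048 to 0.044. The same-numbered values at 7 DAP were 0.037, 0.044 and 0.0122, against −0.0463 to 0.0102 between libraries of different number. At 7 DAP every library correlated best with its own number, and at 14 DAP not. With the replicate block, 8548 genes were higher and 8582 lower at 7 DAP, and 7581 and 7654 at 14 DAP, and no call of the 3 genes changed. For ratios across stages, the alternatives were chosen after seeing the data. All ratio differences kept their sign. For *sut1* at 7 DAP, with 429 to 504 counts per library, the 95% interval of the ratio of knockout to wild type ran from 0.920 to 1.11.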
